A study of Mus musculus with 6 samples.

Results

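The 38 genes described here encode proteins that fold, modify, import and clear proteins in the endoplasmic reticulum (ER), together with the sensors and transcription factors of its stress response. They were taken from a list of symbols matched to the NCBI gene numbers of the deposited tables. All 38 were listed among the 16749 genes found in at least 1 library, and all 38 passed the filter on low values that left 10890 genes for the test. The cells were CD8+ T cells, isolated by flow sorting. Their tissue is labelled iLN, and the C57BL/6 mice they came from bore tumors and had been given oxaliplatin, a platinum drug that damages DNA, per the series title. Messenger levels were read by RNA-seq. The 3 WT samples carried floxed Id2 without Cre (genotype Id2f/f), and the 3 knockout samples carried the same floxed alleles with Cd4-Cre (Cd4creId2f/f). Cre driven by Cd4 acts from the thymic stage at which T cell precursors express CD4, so it is not limited to CD8+ cells, and it was present in the knockout group only, so that an effect of Cre and the loss of Id2 cannot be told apart. Id2 encodes a protein that binds E proteins, a class of transcription factors, and keeps them off DNA. The ages of the animals, and whether the samples of a group came from separate animals, are not given in the labels, so each p-value rests on a sample spread that may be technical only.

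A protein that enters the ER passes through the SEC61 channel, loses its signal peptide and is folded by chaperones of the HSP70 and HSP90 families, by lectin chaperones that bind its sugars, and by enzymes that form disulfide bonds. Proteins that fail to fold are sent back to the cytosol for degradation. When unfolded proteins build up, the membrane sensors ATF6, IRE1 (gene Ern1) and PERK (gene Eif2ak3) start the unfolded protein response: cleaved ATF6 and spliced XBP1 switch on chaperone genes, while PERK slows translation and favours ATF4, which in turn raises CHOP (gene Ddit3). Lymphocytes enlarge this machinery when they become secretory or divide. ATF6 cleavage, XBP1 splicing and ATF4 translation take place after the transcript is made, and gene-level read counts measure none of them.

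Many ER chaperone genes carry the ER stress response element in their promoters, which ATF6 binds together with NF-Y. RefSeq promoter windows on GRCm38.p6 (the build also called mm10), from 250 bases before to 50 after the gene start, were matched for 33 of the 38 genes and searched on both strands for CCAAT followed by any 9 bases and CCACG. The element was found in 8 of these 33 genes (24.2%) and in 37 of 27025 genes with such a window (0.137%). Because the element is known from ER chaperone genes, a higher share here was to be foreseen and is no result of these libraries. The 8 genes gave 9 matches, because Hsp90b1 held a pair of them. The matches are shown because, of the 4 motifs searched, this one was found in the most of the 33 genes. Each is written in the direction that reads CCAAT first, with the whole element in capitals, and with its place on GRCm38.p6.
Calr, chr8:84847075-84847093, plus strand: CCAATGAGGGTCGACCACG
Canx, chr11:50325800-50325818, minus strand: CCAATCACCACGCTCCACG
Creld2, chr15:88819520-88819538, minus strand: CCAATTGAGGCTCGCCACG
Dnajc3, chr14:118937827-118937845, plus strand: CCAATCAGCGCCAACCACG
Hsp90b1, chr10:86705638-86705656, minus strand: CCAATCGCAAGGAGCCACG
Hsp90b1, chr10:86705533-86705551, plus strand: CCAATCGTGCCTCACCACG
Hspa5, chr2:34772025-34772043, plus strand: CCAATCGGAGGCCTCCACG
Pdia6, chr12:17266491-17266509, plus strand: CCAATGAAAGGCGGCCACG
Syvn1, chr19:6046532-6046550, plus strand: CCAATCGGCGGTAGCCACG

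Of the 8 genes with the element, 5 were lower in the knockout libraries (Hsp90b1, Creld2, Calr, Canx and Pdia6). The other 3 did not pass the test (Hspa5, Dnajc3 and Syvn1), so a match was present on either side of the threshold. For comparison, 47.4% of the 38 genes and 8.77% of all genes tested were lower. Among the 17 folding genes (chaperones, cochaperones, isomerases and oxidase) the share was 76.5%. Sdf2l1, which fell most of the 38, had no match to the element. Among 7 tested genes with the element outside the 38, 1 was lower (edgeR, adjusted p under 0.05) and the median log2 fold change was -0.03. A shorter form, ATTGG, any base, CCACG, which holds the CCAAT box of the first motif on the other strand and the same CCACG, was found in 2 of the 33 genes (6.1%) and in 0.044% of all genes with a window. These were Dnajb11, where ATTGGCCCACG lay 7 to 17 bases after the start base, and Herpud1, where ATTGGGCCACG lay upstream. The unfolded protein response element TGACGTGG was in 0 of the 33 windows and in 0.714% of all genes. TGATGCAA, the core of the element bound by CHOP and ATF4, was in 1 of the 33, Herpud1, and in 1.032% of all genes. Creld2, Pdia6 and Hsp90b1, whose upstream windows are printed next, lie at chr15:88819646-88826681, chr12:17266589-17284785 and chr10:86690841-86705444, and each printed window ends at the base before the annotated start. These counts describe letters in a fixed window and not binding.

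The 250 bases upstream of the start are given for Creld2, Pdia6 and Hsp90b1, the 3 folding genes with the largest fall among those with an upstream match. Capitals mark the element as it reads on the strand of the gene. In Creld2 it lies on the opposite strand, and in Hsp90b1 the match nearer to the start does.
Creld2, chr15:88819396-88819645, plus strand: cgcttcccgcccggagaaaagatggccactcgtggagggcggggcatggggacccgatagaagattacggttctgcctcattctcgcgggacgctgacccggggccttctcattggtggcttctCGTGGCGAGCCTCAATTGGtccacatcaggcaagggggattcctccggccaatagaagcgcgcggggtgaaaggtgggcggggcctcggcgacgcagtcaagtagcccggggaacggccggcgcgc
Pdia6, chr12:17266339-17266588, plus strand: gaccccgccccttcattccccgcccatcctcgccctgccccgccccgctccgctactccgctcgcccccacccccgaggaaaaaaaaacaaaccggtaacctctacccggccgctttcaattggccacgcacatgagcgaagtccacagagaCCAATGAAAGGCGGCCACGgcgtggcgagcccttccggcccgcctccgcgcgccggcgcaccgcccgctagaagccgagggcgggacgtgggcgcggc
Hsp90b1, chr10:86705445-86705694, minus strand: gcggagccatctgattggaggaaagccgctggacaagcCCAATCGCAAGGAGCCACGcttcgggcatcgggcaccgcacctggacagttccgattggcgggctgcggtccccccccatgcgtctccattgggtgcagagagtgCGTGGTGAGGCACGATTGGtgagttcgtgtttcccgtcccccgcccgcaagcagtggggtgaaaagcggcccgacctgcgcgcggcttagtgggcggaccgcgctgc

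**Figure D1:**
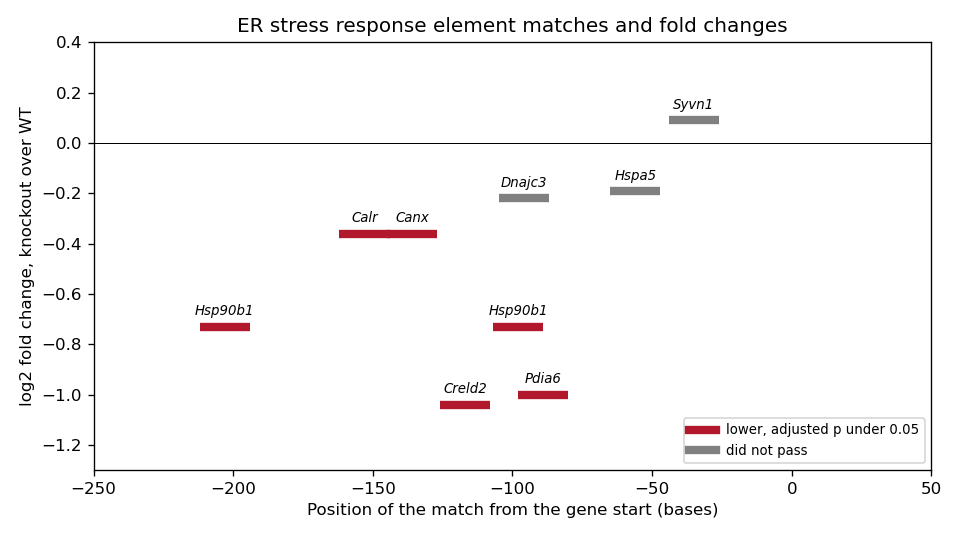
Position of each ER stress response element match, in bases from the gene start (counted as 0, with upstream negative), against the log2 fold change of the gene, knockout over WT; red bars are genes lower at an adjusted p under 0.05 (edgeR) and grey bars did not pass. The matches lie between 212 and 26 bases upstream of the start, and genes that fell and genes that did not pass are both present.

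Levels are given as FPKM, fragments per kilobase of transcript, scaled to library size, which can be compared between genes. Expected counts summed to between 7699181 and 8495123 per library. Id2 itself, the check of the labels, was at 370.98, 146.76 and 149.01 FPKM in WT and 1.67, 2.64 and 2.12 in knockout. Of the genes tested, 8.77% were lower and 3.14% higher in knockout at an adjusted p under 0.05 (edgeR quasi-likelihood test, Benjamini-Hochberg over 10890 genes). Of the 38 ER genes, 18 were lower (47.4%) and 0 higher, and at an unadjusted p under 0.05 20 were lower and 0 higher. The number higher was also 0 by DESeq2 and by limma. Their median log2 fold change was -0.33, against 0.01 over all genes tested. All 3 knockout libraries lay below all 3 WT libraries for 21 of the 38, which is so for 16.8% of all genes tested.

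Most of the genes that fell were folding genes. Of 17 chaperones, cochaperones, isomerases and oxidases 13 were lower, with a median log2 fold change of -0.6. Of the 7 sensors, transcription factors and Trib3 1 was lower, with a median of -0.1, which joins unlike roles. For the 3 sensors the median was -0.87, with 1 lower and 2 lower at an unadjusted p under 0.05 by edgeR. For the 4 genes of transcription factors and Trib3 it was 0.07, with 0 lower. Of 5 genes of ER-associated degradation 0 were lower, with a median of -0.06 (0 at an unadjusted p under 0.05 by edgeR, and 0 by DESeq2 or limma). The import machinery lay between the folding and the degradation genes, with 4 of 9 lower and a median of -0.25. These roles were set side by side by count, and the difference between them was not tested. The summed level of the 17 folding genes was 2426, 2323 and 2347 FPKM in WT and 1758, 1715 and 1627 in knockout, and that of the 7 sensors, transcription factors and Trib3 was 354, 308 and 287 against 315, 366 and 352. The folding sums of the groups did not overlap, while the sums of the regulators did. Divided by each other within a library, they gave 6.85, 7.54 and 8.18 in WT and 5.58, 4.68 and 4.62 in knockout.

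**Figure D2:**
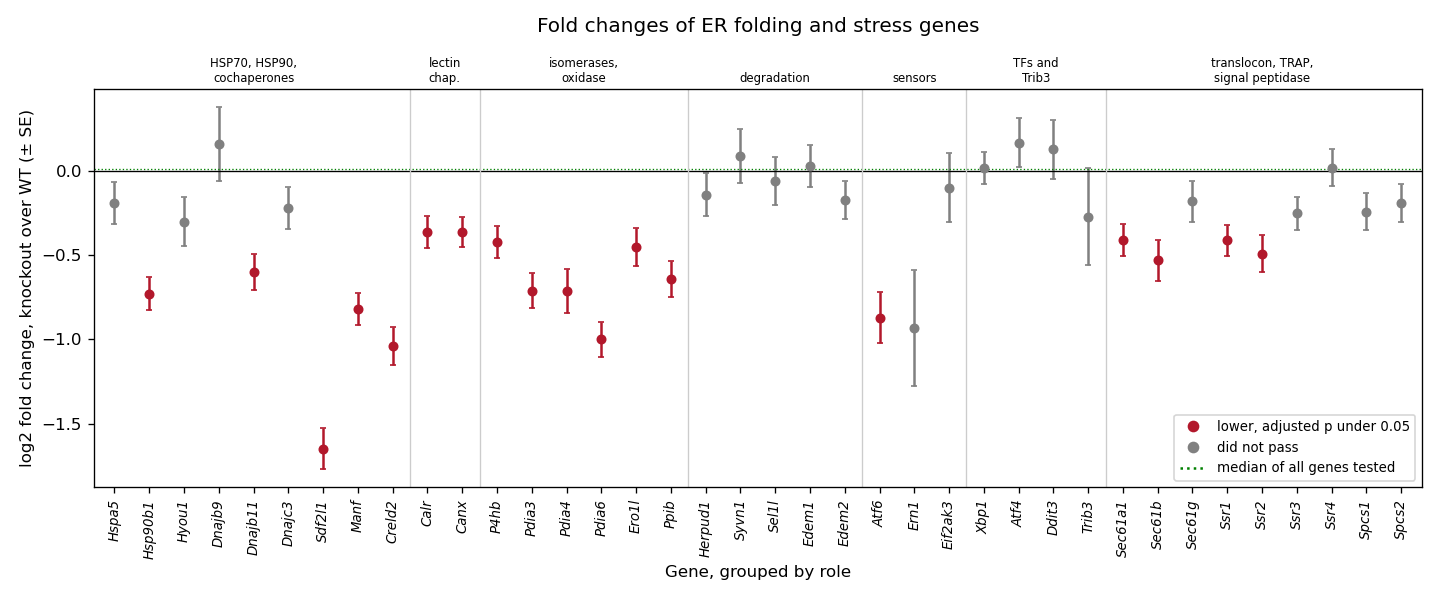
Log2 fold change of each gene, knockout over WT, with its standard error from edgeR, grouped by role; red points are lower at an adjusted p under 0.05, grey points did not pass, and the dotted line is the median of all genes tested (0.01). The isomerases and oxidase are all red, and the degradation genes and transcription factors are all grey.

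Among the HSP70 and HSP90 chaperones and their helpers, 5 of 9 fell. Sdf2l1 (chr16:17130138-17132383, GRCm38.p6), which encodes a small ER protein that works with HSP70 cochaperones, fell most. Its level was 69.05, 69.02 and 84.21 FPKM in WT and 24.39, 24.87 and 22.35 in knockout. The knockout libraries lay close together, and Sdf2l1 had the 11th smallest p of all genes tested (log2 fold change -1.65, SE 0.122, edgeR adjusted p = 9.44e-05). Creld2, which encodes an ER protein with disulfide isomerase activity and is a target of ATF6, was at 52.47, 54.38 and 60.34 FPKM in WT and 24.77, 29.64 and 27.81 in knockout. It fell 2.05-fold (log2 fold change -1.04, SE 0.111, adjusted p = 0.000431). Manf, which encodes a secreted and ER-resident factor that binds the HSP70 of the ER, fell from 55.1 ± 3.56 to 31.5 ± 1.19 FPKM (SD, n = 3; log2 fold change -0.82, adjusted p = 0.000591, edgeR).

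Hsp90b1 encodes GRP94, the HSP90 of the ER. Its level was 248.64, 228.32 and 252.43 FPKM in WT and 144.45, 156.82 and 143.31 in knockout, with no overlap. This was a 1.66-fold fall (log2 fold change -0.73, SE 0.098, edgeR adjusted p = 0.00118). Dnajb11, an HSP40 cochaperone, fell from 77.2 ± 3.11 to 51 ± 4.41 FPKM (SD, n = 3; log2 fold change -0.6, adjusted p = 0.00553, edgeR). These 5 genes kept their call in each of the 14 alternative fits.

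Hspa5 (chr2:34772090-34776529) encodes BiP, the HSP70 of the ER and the most abundant of the 38 transcripts. It stood at 588.28, 527.47 and 468.32 FPKM in WT and 508.23, 442.95 and 452.29 in knockout. The groups overlapped, and the log2 fold change of -0.19 (SE 0.125) did not pass (adjusted p = 0.364, edgeR), with an interval of 2 SE from -0.44 to 0.06 that reaches neither the value of Hsp90b1 nor that of Sdf2l1. The ratio of Hspa5 to Hsp90b1 came to 2.37, 2.31 and 1.86 in WT and 3.52, 2.82 and 3.16 in knockout, without overlap. Hsp90b1 was itself lower, so this ratio restates its fall beside an Hspa5 level that did not pass. Hyou1, the large HSP70-like exchange factor of BiP, was low, at 6.26 ± 0.46 and 5.12 ± 0.643 FPKM, and missed the threshold (adjusted p = 0.215, log2 fold change -0.3). Dnajc3, a cochaperone and inhibitor of PERK, stood at 29 ± 1.09 and 25.2 ± 3.6 FPKM (adjusted p = 0.303).

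Dnajb9, a cochaperone that is a well-known target of spliced XBP1, was the most variable folding gene among WT libraries. The 3 WT libraries held it at 109.75, 80.56 and 53.81 FPKM and the 3 knockout libraries at 97.37, 91.34 and 88.94, inside the WT range (log2 fold change 0.16, SE 0.22, adjusted p = 0.682, edgeR). Leaving out WT replicate 1 moved this to 0.49 (adjusted p = 0.0942). WT replicate 1 also held the highest WT level of the cytosolic heat shock gene Hspa1a, at 1301.13 FPKM against 611.93 and 617.24 in the other WT libraries and 937.7, 751.28 and 928.42 in knockout. It also had the highest WT level of Ppp1r15a, which encodes the phosphatase subunit that ends the PERK signal (526.64, 268.01 and 246.32 FPKM in WT; 565.23, 422.67 and 528.34 in knockout). In all libraries the log2 fold changes of Hspa1a and Ppp1r15a were 0.02 and 0.52 (adjusted p = 0.969 and 0.26, edgeR). Without WT replicate 1 they became 0.53 and 1 (adjusted p = 0.0373 and 0.00332). The part of that library's state in the Dnajb9 values was not tested.

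**Figure D3:**
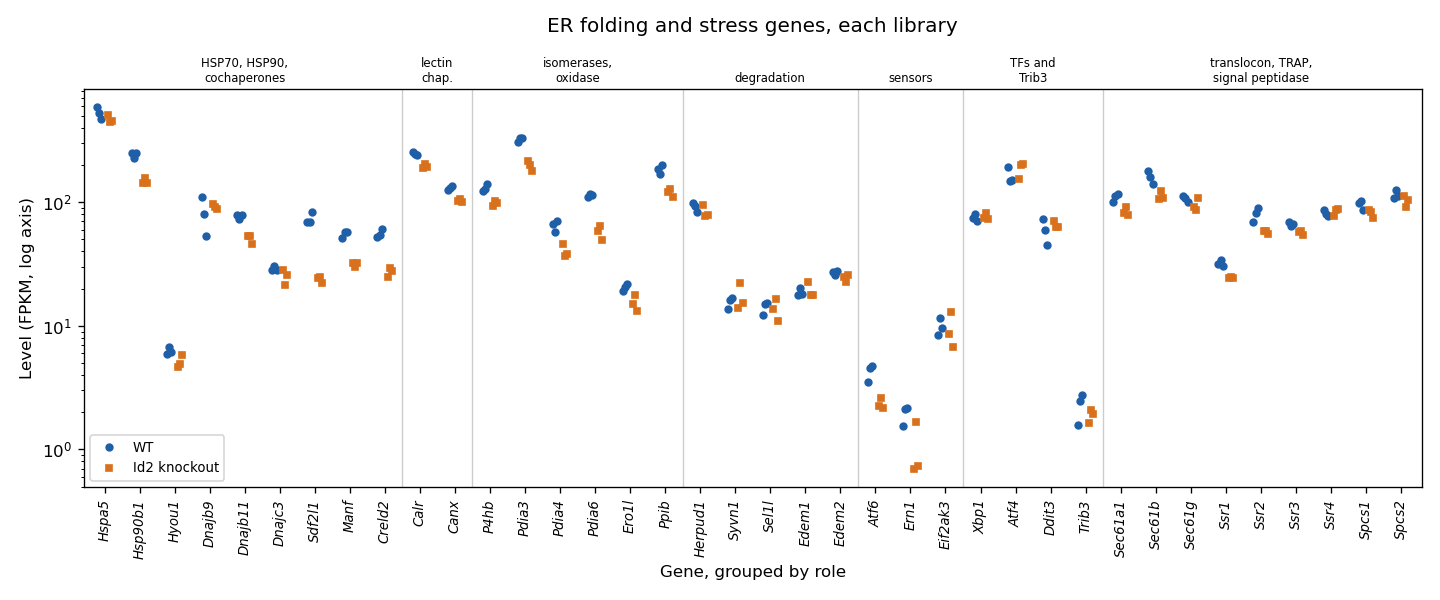
FPKM of each gene in each library on a log axis, grouped by role, with WT as blue circles and Id2 knockout as orange squares. Hspa5 is the highest and overlaps between groups, Sdf2l1 shows the widest gap between groups, and Ern1 and Trib3 are near the bottom.

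The lectin chaperones bind glycoproteins that carry a trimmed sugar and hold them until folded. Calr, which encodes soluble calreticulin, was at 256.81, 243.86 and 242.05 FPKM in WT and 188.44, 203.28 and 193.3 in knockout. Canx, which encodes its membrane-bound relative calnexin, was at 125.65, 129.97 and 135.02 in WT and 102.19, 105.54 and 100.51 in knockout. In neither gene did the groups overlap. The falls were small, with a log2 fold change of -0.36 for each (adjusted p = 0.0344 for Calr and 0.0294 for Canx, edgeR). Neither passed when WT replicate 1, 2 or 3, or replicate 1 or 3 of the knockout, was left out: the adjusted p was, in that order, 0.108, 0.0587, 0.0743, 0.0998 and 0.157 for Calr and 0.0688, 0.0567, 0.0955, 0.0743 and 0.158 for Canx. With the replicate number as a block, Calr stood at an adjusted p of 0.0523.

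All 6 isomerases and oxidases fell. Pdia6 encodes a protein disulfide isomerase that also binds the sensors IRE1 and PERK. Its level was 110.03, 117.58 and 113.9 FPKM in WT and 58.46, 63.79 and 49.96 in knockout, a 2-fold fall (log2 fold change -1, SE 0.104, edgeR adjusted p = 0.000394). Each WT library was above each knockout library by a wide margin. Pdia3, the isomerase that works with the lectin chaperones and also helps load MHC class I, was at 305.21, 328.72 and 334.12 FPKM in WT and 215.46, 201.73 and 178.51 in knockout. It fell 1.64-fold (adjusted p = 0.00174), and so did Pdia4 (64.9 ± 6.62 to 40 ± 4.89 FPKM, SD, n = 3; adjusted p = 0.00664, edgeR). Ppib, which encodes the proline isomerase cyclophilin B, fell from 185 ± 14.9 to 120 ± 9.01 FPKM (log2 fold change -0.64, adjusted p = 0.00379).

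P4hb and Ero1l fell less. P4hb encodes protein disulfide isomerase itself and was at 123.69, 127.59 and 141.46 FPKM in WT and 93.54, 102.85 and 99.35 in knockout (log2 fold change -0.42, adjusted p = 0.0171, edgeR). Its call ended without WT replicate 3 (adjusted p = 0.072), knockout replicate 1 (0.0671) or knockout replicate 3 (0.0854). Ero1l, which encodes the oxidase that recharges the isomerase (RefSeq symbol Ero1a), was at 19.24, 20.8 and 22 FPKM in WT and 14.98, 17.78 and 13.23 in knockout (log2 fold change -0.45, adjusted p = 0.0313). It was the least stable call of the folding genes. It did not pass when any one WT library, or replicate 1 or 3 of the knockout, was left out (adjusted p = 0.0624, 0.0677, 0.115, 0.0929 and 0.167), with the replicate block (0.0509), with the B cell covariate (0.0698) or by limma (0.0812).

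None of the 5 degradation genes passed. Herpud1, which encodes a membrane protein that assembles the degradation complex and is strongly induced by ER stress, was at 98.12, 92.92 and 83.03 FPKM in WT and 95.24, 76.85 and 79.07 in knockout (adjusted p = 0.52, edgeR). The ubiquitin ligase gene Syvn1 stood at 15.6 ± 1.64 and 17.1 ± 4.44 FPKM and its partner gene Sel1l at 14.2 ± 1.67 and 13.7 ± 2.81. Edem1 and Edem2, which encode mannosidase-like proteins that mark glycoproteins for removal, had log2 fold changes of 0.03 and -0.17. In Edem2 all knockout values (24.84, 22.57 and 25.71 FPKM) lay below all WT values (27.49, 25.85 and 27.96), yet the difference did not pass (SE 0.113, adjusted p = 0.382).

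The sensor genes were among the less abundant of the set. Atf6 (chr1:170704457-170868585) was at 3.53, 4.54 and 4.72 FPKM in WT and 2.26, 2.62 and 2.16 in knockout. It fell 1.83-fold without overlap (log2 fold change -0.87, SE 0.152, adjusted p = 0.00521, edgeR) and passed in each of the 13 alternative fits that tested it. Ern1 was at 1.54, 2.14 and 2.16 FPKM in WT and 0.69, 1.68 and 0.74 in knockout. Knockout replicate 2 lay among the WT values, and the log2 fold change of -0.93 (SE 0.345) did not pass (adjusted p = 0.113, edgeR). Without that library it was -1.43 (adjusted p = 0.0139), and with the B cell covariate it was -0.61 (adjusted p = 0.209). That library also held the most B cell transcripts of its group, with a marker sum of 2016 FPKM against 485 and 439. In WT the sum was 648, 2114 and 2495 FPKM. Eif2ak3 was at 8.5, 11.63 and 9.69 FPKM in WT and 8.65, 12.84 and 6.73 in knockout (adjusted p = 0.783). In knockout, replicate 2 was the highest for each of the 3 sensors.

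The transcription factor genes did not pass. Xbp1 (chr11:5520641-5525993) was at 74.51, 80.36 and 70.15 FPKM in WT and 75.2, 82.47 and 73.14 in knockout, which gave a log2 fold change of 0.02 and an interval of 2 SE from -0.17 to 0.22. Its ratio to Sdf2l1 in the same library came to 1.08, 1.16 and 0.833 in WT and 3.08, 3.32 and 3.27 in knockout. Sdf2l1 was itself lower, so this ratio restates the fall of Sdf2l1 beside an Xbp1 level that did not pass. Atf4 was at 191.31, 147.56 and 152.11 FPKM in WT and 155.64, 201.57 and 204.3 in knockout (log2 fold change 0.17, interval of 2 SE from -0.12 to 0.47, adjusted p = 0.496, edgeR). Ddit3 was at 73.32, 59.23 and 45.3 FPKM in WT and 70.74, 62.95 and 63.04 in knockout (log2 fold change 0.13, adjusted p = 0.694). In each of these genes the groups overlapped, and WT replicate 1 held the highest Atf4 and Ddit3 of its group. Without it, their log2 fold changes were 0.34 and 0.35 (adjusted p = 0.152 and 0.186). Trib3, which encodes a pseudokinase induced by ATF4 and CHOP, stood at 2.26 ± 0.615 and 1.89 ± 0.23 FPKM (adjusted p = 0.599).

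**Figure D4:**
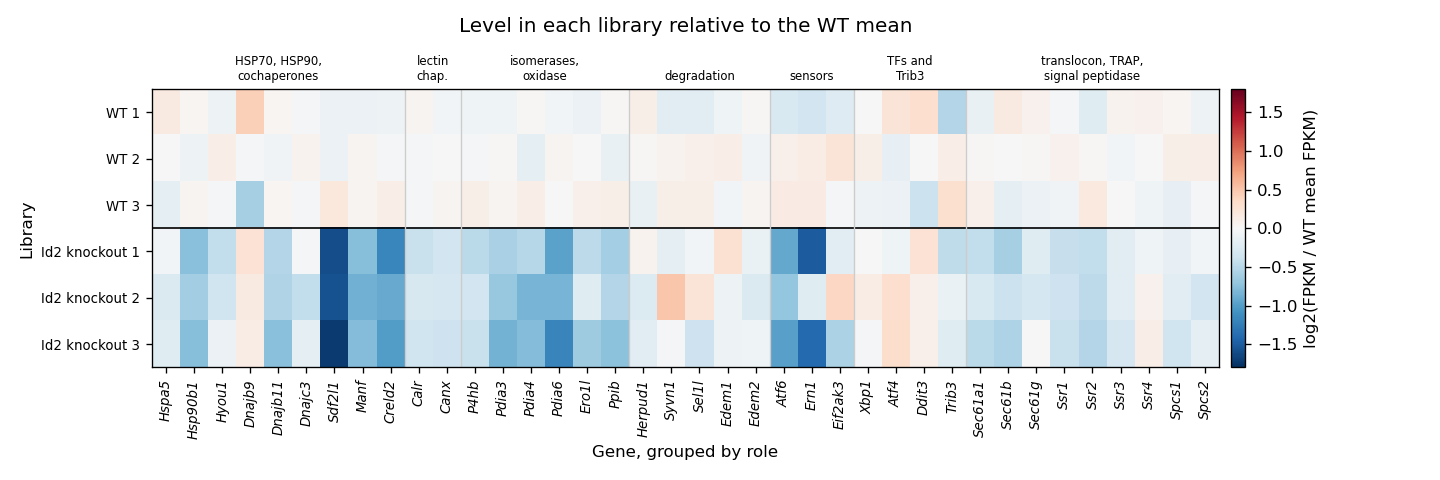
Log2 ratio of the FPKM in each library to the mean of the 3 WT libraries, for each gene (columns, by role) and library (rows), with blue for lower and red for higher. The folding genes Sdf2l1, Creld2 and Pdia6 are blue in all 3 knockout libraries, while Ern1 is pale in knockout replicate 2 and Dnajb9 differs among the WT libraries.

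In the import machinery 4 of 9 genes fell, all of them genes of the channel or of the TRAP complex. Sec61a1, which encodes the pore of the channel, was at 100.91, 112.37 and 117.59 FPKM in WT and 81.41, 91.42 and 79.15 in knockout (log2 fold change -0.41, adjusted p = 0.022, edgeR). Sec61b, a small subunit, was at 178.77, 159.64 and 141.58 in WT and 105.6, 122.95 and 108.36 in knockout (log2 fold change -0.53, adjusted p = 0.0208). Neither overlapped between groups. The other small subunit gene, Sec61g, stood at 107 ± 6.48 and 95.4 ± 11.2 FPKM and did not pass (adjusted p = 0.383). Among the TRAP subunits, which help signal sequences engage the channel, Ssr1 fell from 32.2 ± 1.66 to 24.5 ± 0.324 FPKM (adjusted p = 0.0175) and Ssr2 from 80.3 ± 10.5 to 57.6 ± 1.8 (SD, n = 3; adjusted p = 0.0169, edgeR). Ssr3 stood at 66.9 ± 2.74 and 56.9 ± 2.36 FPKM (adjusted p = 0.127) and Ssr4 at 81.5 ± 4.58 and 83.9 ± 6.17 (log2 fold change 0.02). The ratio of Ssr4 to Ssr2 came to 1.24, 0.997 and 0.854 in WT and 1.3, 1.48 and 1.6 in knockout, which restates the fall of Ssr2. Spcs1 and Spcs2, subunits of signal peptidase, had log2 fold changes of -0.24 and -0.19 (adjusted p = 0.186 and 0.336).

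Calls of the 4 lower import genes were lost when single libraries were left out, while their fold changes moved little. Over the 14 alternative fits the log2 fold change was -0.45 to -0.35 for Sec61a1 and -0.62 to -0.4 for Sec61b. It was -0.45 to -0.38 for Ssr1 and -0.55 to -0.41 for Ssr2. Without knockout replicate 3, 0 of the 9 passed by edgeR, and the adjusted p was 0.139 for Sec61a1, 0.104 for Sec61b, 0.0947 for Ssr1 and 0.0946 for Ssr2. Without knockout replicate 1 only Ssr2 passed, and Sec61a1, Sec61b and Ssr1 stood at 0.0743, 0.0781 and 0.0553. Of the WT libraries, leaving out replicate 1 ended the calls of Sec61b (0.0714) and Ssr1 (0.0544), replicate 2 those of Sec61a1 (0.055) and Ssr1 (0.0556), and replicate 3 those of Sec61a1 (0.0872) and Ssr2 (0.0713). With the B cell covariate Sec61a1 stood at 0.0504. Across all 38 genes, 10 of the 18 lower genes kept their call in every alternative fit that tested them: Sdf2l1, Creld2, Manf, Hsp90b1, Dnajb11, Pdia3, Pdia4, Pdia6, Ppib and Atf6. The count of 18 became 11 without knockout replicate 1 and 10 without knockout replicate 3. Over all genes tested, the number lower went from 955 to 688 and 517 in the same fits.

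Expected counts were whole numbers (within 0.005) in all libraries for 33 of the 38 genes. For Dnajb9, Dnajb11, Sdf2l1, Sec61g and Ssr1 part of the reads had been divided with other genes, so their levels are less certain.

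Other genes of the pathway were taken from lists that hold none of the 38. Of 21 tested further folding genes 5 were lower and 0 higher, with a median log2 fold change of -0.17. Prdx4, which encodes the ER peroxiredoxin that feeds oxidizing power to the isomerases, was at 38.85, 38.82 and 59.01 FPKM in WT and 3.17, 7.14 and 5.73 in knockout. It fell 8.73-fold (adjusted p = 0.000185, edgeR), far more than any of the 38. The proline isomerase gene Fkbp2 fell from 67.2 ± 4.53 to 28.7 ± 3.64 FPKM and the disulfide isomerase gene Txndc5 from 35.7 ± 3.12 to 18 ± 3.7 (SD, n = 3; adjusted p = 0.00049 and 0.00149, edgeR). These 3 kept their calls in each alternative fit, while the count of 5 was 3 with any WT library, or replicate 1 or 3 of the knockout, left out, and also 3 by limma and with the replicate block.

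Of 26 further genes of import and N-glycosylation 6 were lower and 0 higher, with a median of -0.22. Rpn1, a subunit of the oligosaccharyltransferase, fell from 59.4 ± 8.42 to 32.7 ± 3.13 FPKM, the signal peptidase gene Spcs3 from 57.3 ± 4.76 to 38.2 ± 3.16 and the oligosaccharyltransferase gene Ddost from 135 ± 15.2 to 96.2 ± 6.39 (SD, n = 3; adjusted p = 0.00116, 0.00428 and 0.0165, edgeR). Ddost lost its call without WT replicate 3 (0.0695) or knockout replicate 3 (0.0944). The count was 3 without WT replicate 1 or 3 and 2 without knockout replicate 3, and 9 by DESeq2. Of 19 further degradation genes and 14 further stress signalling genes 0 were lower and 0 higher by edgeR, DESeq2 or limma, with medians of -0.06 and 0.04. At an unadjusted p under 0.05, 3 degradation genes were lower, 0 higher, and 2 stress signalling genes higher, 0 lower. Without knockout replicate 2 the degradation gene Ube2j1 was lower and Ngly1 higher (log2 fold change -0.38 and 0.35, adjusted p = 0.0376 and 0.0491, edgeR), and without WT replicate 1 the stress signalling gene Ppp1r15a was higher.

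Genes known as targets of ATF4 or CHOP were counted beside Atf4 and Ddit3. Of 20 tested 9 were lower and 0 higher, with a median of -0.49. Asns, which encodes asparagine synthetase, was at 7.3, 12.45 and 12.23 FPKM in WT and 0.06, 1.28 and 0.47 in knockout. Its log2 fold change was -4.15 (adjusted p = 0.000862, edgeR), or -5.28 without knockout replicate 2, and -2.9 by limma on log2(FPKM + 1). The cystine transporter gene Slc7a11 fell from 58.3 ± 12.7 to 25.8 ± 5.08 FPKM and Bcat1, which encodes a branched-chain aminotransferase, from 2.58 ± 1.06 to 0.253 ± 0.169 (SD, n = 3; adjusted p = 0.00156 and 0.00176, edgeR). Bcat1 had a log2 fold change of -3.33, which was -1.48 by limma on log2(FPKM + 1), a scale that understates changes of low genes. The count of 9 was 4 without knockout replicate 3. Several genes of this list also serve amino acid and one-carbon metabolism, and other factors regulate them too.

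Chaperones outside the ER were set beside these. Of 25 cytosolic and mitochondrial chaperone genes 2 were lower and 0 higher, which is 8% and near the 8.77% of all genes, with a median of -0.11. The mitochondrial Hspd1 fell from 162 ± 10.7 to 116 ± 3.84 FPKM and the chaperonin gene Tcp1 from 124 ± 4.83 to 90.9 ± 5.8 (SD, n = 3; adjusted p = 0.00964 and 0.0104, edgeR), and neither kept its call without knockout replicate 3 (0.0702 and 0.0792). Without WT replicate 1, 3 genes of this list were higher, Hspa1a among them.

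Transcripts of other cells and of dividing cells varied beside these changes. Fewer cells of a type and less RNA per cell cannot be told apart in bulk samples. The defining CD8+ T cell genes were present, with Cd8a between 196.14 and 231.77 FPKM. Of 8 CD8+ T cell markers 1 was lower and 0 higher. The lower one was Thy1 (log2 fold change -0.35, adjusted p = 0.0397, edgeR), which kept its call in 6 of 14 alternative fits. The summed level of 12 B cell markers was 648, 2114 and 2495 FPKM in WT and 485, 2016 and 439 in knockout, and 0 of the 11 tested passed by edgeR, with 0 at an unadjusted p under 0.05. With the B cell sum as a covariate, 16 of the 38 were lower and 0 higher. The most abundant B cell markers were Cd74, at 1460 ± 817 FPKM in WT and 809 ± 751 in knockout, Cd79a, at 130 ± 78.7 and 67.9 ± 71.6, and Cd79b, at 49 ± 18.1 and 30.6 ± 16.7 (SD, n = 3).

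Plasma cells, which carry a very large ER, were read from 7 markers, with a small sum of 31.8, 45.9 and 55.4 FPKM in WT and 17.3, 28.5 and 20.1 in knockout. Of 5 tested 2 were lower, Jchain (7.68 ± 1.16 to 2.79 ± 1.27 FPKM) and Prdm1 (6.05 ± 1.64 to 1.09 ± 0.593; SD, n = 3; adjusted p = 0.00874 and 0.00124, edgeR). Prdm1 is also expressed by effector T cells. The most abundant were Irf4, at 14.7 ± 3.36 and 12.4 ± 1.4 FPKM, Mzb1, at 13.5 ± 8.27 and 4.3 ± 3.34, and Jchain, and Tnfrsf17 was listed in 0 libraries. The dendritic cell sum of 6 markers was 12.7 to 20.6 FPKM in WT and 3.45 to 6.73 in knockout. Itgax (8.02 ± 4.19 to 0.55 ± 0.355 FPKM) and Zbtb46 (3.85 ± 0.38 to 0.91 ± 0.609) carried that fall (SD, n = 3; adjusted p = 0.000654 and 0.00755, edgeR). Xcr1 stood at 2.97 ± 0.636 and 2.81 ± 0.691 FPKM, Siglech and Flt3 were under the filter at 0.27 and 0.257 FPKM in WT and 0.523 and 0.187 in knockout, and Clec9a was at 0 throughout. Which cells these marker transcripts came from, and the part of those cells in the ER gene results, was not tested. All 18 cell cycle genes read beside them were lower, with a sum of 1366, 1245 and 1727 FPKM in WT and 406, 550 and 388 in knockout. Their part in the ER gene results was not tested either.

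**Figure D5:**
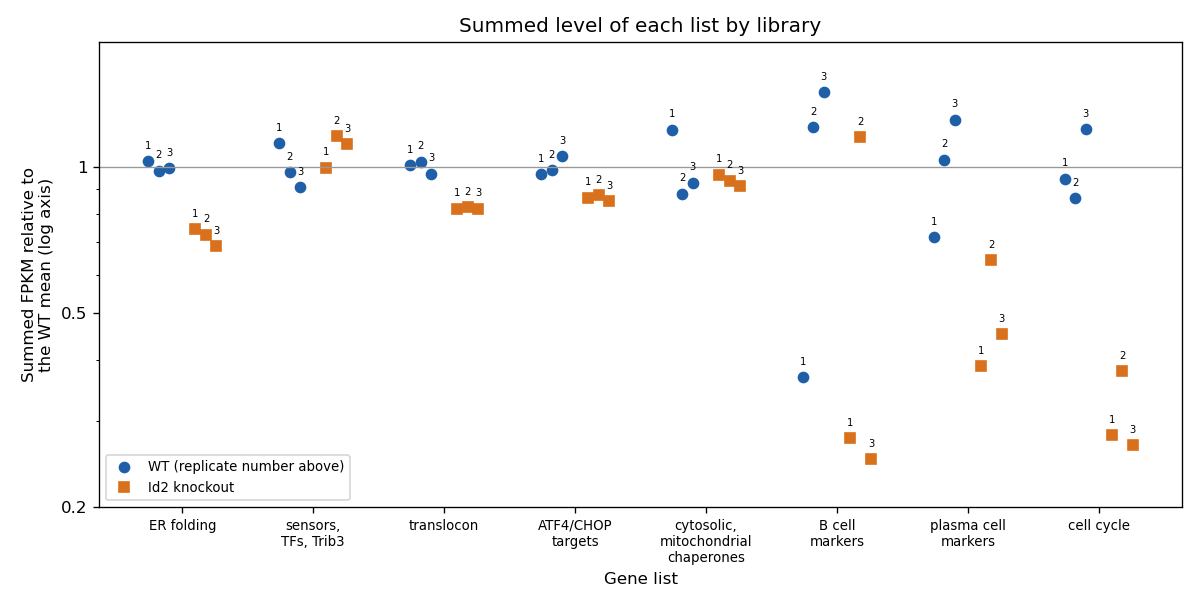
Summed FPKM of each gene list in each library, divided by the mean of the 3 WT libraries, on a log axis; blue circles are WT, orange squares are knockout, and the small numbers are the replicates. The folding sums are separate between groups and tight within them, the B cell sums are low in WT 1 and knockout 1 and 3, and the cell cycle sums are far apart.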

How the data were processed

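RNA-seq of 6 libraries, 3 WT and 3 Id2 knockout, was used. CASAVA, Bowtie2 and RSEM and the genome build mm10 are listed, per the submitters' processing notes, with no version. Per the file headers, the authors deposited an expected count per gene (RSEM's estimate, in which reads that match several genes are divided) and an FPKM value. Genes absent from a library's table were set to 0. Strandedness of the counting was not given in any source used.

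Tables were joined by NCBI gene number, and symbols came from RefSeq (GRCm38.p6), where all 38 members matched. Expected counts, rounded to whole numbers, were scaled by TMM and tested with the two-sided quasi-likelihood test of edgeR 4.0.16 (R 4.3.3) on the 10890 genes that reached 1 FPKM in 3 or more libraries, with Benjamini-Hochberg adjustment and a threshold of 0.05. The SE is the log2 fold change divided by the square root of F. The members and lists were chosen with earlier results of these data known. Named were Id2, all members, up to 3 genes per direction of each further list by smallest p, and the 3 most abundant B cell and plasma cell markers. Hspa1a, Ppp1r15a, Ube2j1, Ngly1, Cd8a, Thy1, Prdm1, Tnfrsf17 and the dendritic cell markers were named after their values were seen. The ratios within a library were not among the planned results, and they restate the levels of their genes. On simulated counts for 10890 genes with 200 changed, edgeR recovered 96% of 2-fold and 100% of 4-fold changes, with 7 false calls among 203. The simulation gave all genes the same spread and planted changes only in genes above a minimum count. These rates therefore do not describe falls under 2-fold, genes of low count or libraries that differ in cell content. The chi-square between libraries of a group, divided by its degrees of freedom, was 5.19 to 16.35, so none was a duplicate. Alternatives used DESeq2 1.42.0, limma 3.58.1 and other filters, covariates and libraries. Promoter motifs were counted in RefSeq windows, and figures were drawn with matplotlib 3.10.9 (Python 3.11.15, pandas 2.3.3). Protein sequences were not analysed here.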

Additional observations from a re-analysis of the deposited data

How the results depend on the processing

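Over 14 alternatives, the 38 genes gave 529 values, of which 490 kept their side of the threshold, 38 lost a call, 1 gained one (Ern1 without knockout replicate 2) and 0 changed direction with a call. Of the lost calls, 31 came from leaving out 1 library. The number of lower ER genes was 10 to 19 without 1 library, with 11 without knockout replicate 1 and 10 without knockout replicate 3, and 16 to 18 otherwise. The number higher was 0 to 0 without 1 library and 0 in each other fit. Over all genes, the number lower was 517 to 1082 and the number higher 84 to 480 without 1 library. The share of all genes lower was 9.93% with an FPKM minimum of 5, where 17 ER genes were lower. Atf6, Ern1 and Trib3 were not tested under that minimum, and Atf6 was the only one of the 18 lower genes missing from the 17. The median of the 38 stayed between -0.36 and -0.29, and the scaling moved the median of all genes by under 0.1. Replicate numbers are shared by the groups, and the labels state no pairing. The deviations of same-numbered libraries had correlations of 0.12, 0.07 and -0.03. With 3 libraries per group these values cannot decide whether same-numbered libraries belong together. With the replicate block 16 ER genes were lower, 888 genes lower and 295 higher in all. Of the 38, Ern1 and Trib3 had the lowest counts, 22 to 73 and 27 to 47 per library. They also had the largest SE, 0.345 and 0.289.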
